A study of Mus musculus with 8 samples.

Results

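A set of 50 genes that encode chromatin modifiers and remodelers was examined for DNA double-stranded breaks (DSBs) in mouse embryonic stem (ES) cells without Chd1. The genes were chosen by name, and all 50 were found among the 22367 protein-coding genes of the GENCODE M1 annotation of the mouse genome build mm9. DSB-seq was performed in established Chd1 KO ES cells (Chd1Δ/Δ, no intact allele) and in control ES cells (Chd1fl/Δ, in which 1 allele is deleted as well), with 2 replicates each. Both were grown in serum with LIF. In this assay broken DNA ends are extended in fixed nuclei with biotinylated nucleotides by terminal transferase, and the labeled DNA is sheared, captured and sequenced. The replicates of each genotype were combined by the authors before peak calling, so every value below comes from 1 list per genotype and has no replicate error. Shares are therefore given with Wilson 95% intervals, which cover counting error only, and no test between the genotypes or across genes was made. Chd1 binding, RNA Pol II and expression were not analyzed here, so neither the deletion nor the identity of the cells could be checked by expression.

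ATP-dependent remodelers slide, evict or exchange nucleosomes, whereas modifiers add or remove acetyl and methyl groups on histones or DNA. Chd1 is itself a remodeler, of another family. In ES cells several of the complexes encoded by these genes, among them the esBAF form of SWI/SNF and the Polycomb complexes, are known for their part in maintaining pluripotency and in holding developmental genes silent. Many promoters of broadly expressed genes lie in CpG islands, stretches of DNA rich in G and C that mostly lack methylation.

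Chd1 KO ES cells had a DSB peak at a transcription start site (TSS) of 25 of the 50 chromatin genes (50.0%, interval 36.6% to 63.4%), and control cells had one at none of them. A gene was counted when a peak summit lay within 1 kb of any of its annotated TSSs. Over all protein-coding genes the share in Chd1 KO was 15.9% (3560 genes), and in control it was 0.0%. The control count of 0 allows a share of up to 6.0% of the 50 genes. Only places that passed the cutoff of the peak caller are listed, 5671 in Chd1 KO and 54 in control. Weaker DSB signal at these genes in control cells is not shown by the peak lists, and coverage along the genome was not analyzed here. All 31 Chd1 KO peaks at these TSSs shared no base with a control peak. The control summit closest to any of the genes lay 39.0 kb from a TSS of Kdm3a, and the median distance was 15.7 Mb, with 3 genes on a chromosome without a control summit left out. Of the 31 peaks, 27 (87.1%, interval 71.1% to 94.9%) had a p-value at least as strong as the weakest control peak, and these lay at 22 genes.

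The heights of the peaks varied within a narrow range. The fold enrichment is the authors' ratio of reads at the summit to the local background, with a constant added to both. It is therefore lower than the plain ratio. It was between 3.03 at Tet3 and 6.58 at Kdm2b, with a median of 4.48 and quartiles of 4.11 and 4.91. The 3583 peaks at the TSSs of all protein-coding genes had a median of 4.52. The number of extended reads at the summit, recovered from the fold enrichment and the p-value, lay between 15 and 34 with a median of 23, against 21 for all TSS peaks. A minimum fold enrichment of 5 left 7 of the 50 genes, beside 4.88% of all genes.

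**Figure D1:**
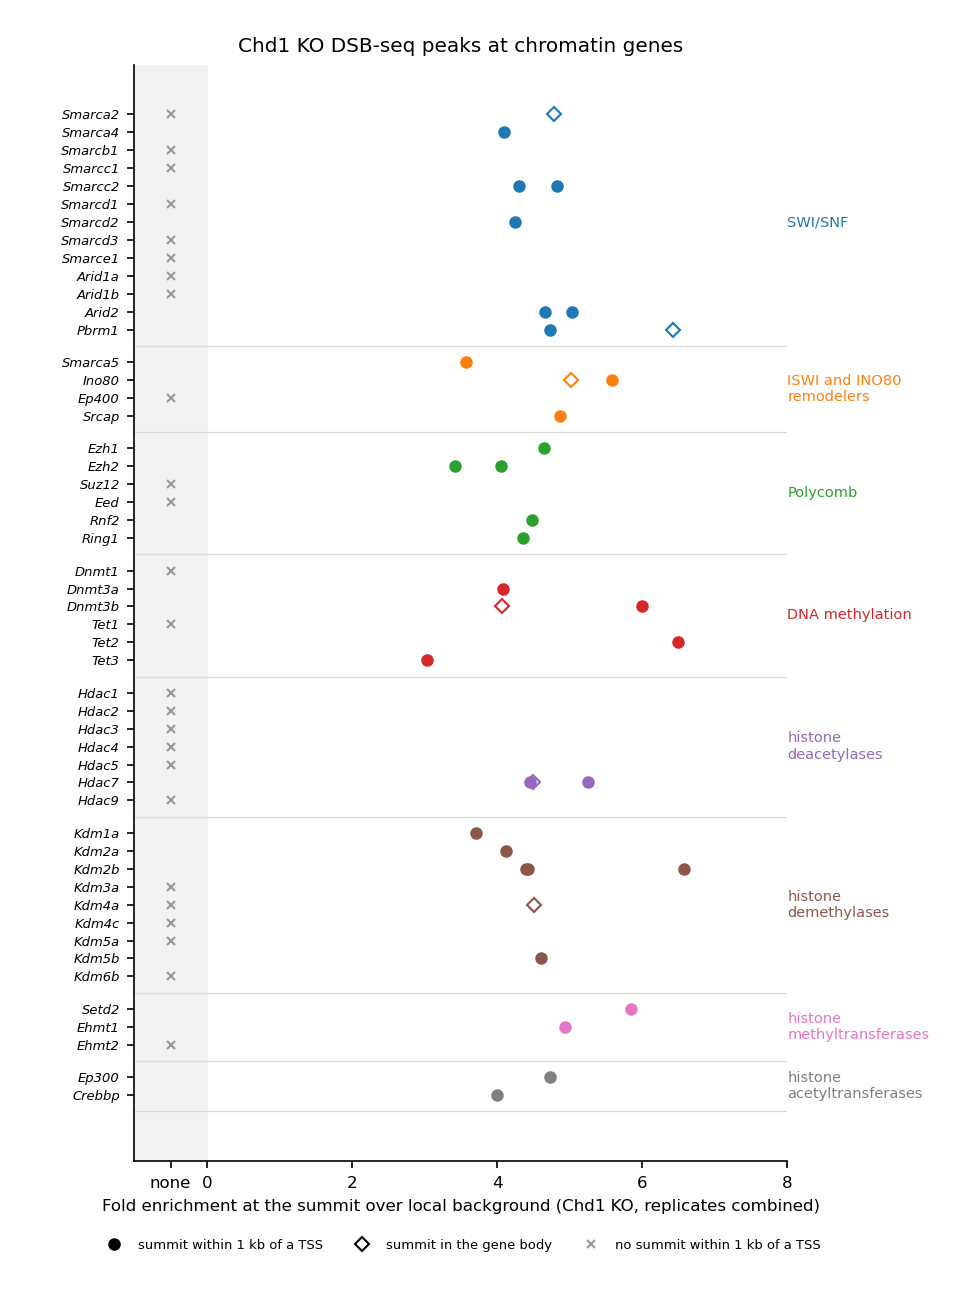
Fold enrichment at the summit (x axis, no unit) of each Chd1 KO peak at the 50 chromatin genes (y axis, grouped by complex or activity). Filled circles are summits within 1 kb of a TSS, open diamonds are summits in the gene body, and crosses in the grey band are genes without a TSS summit. TSS summits lie between 3.03 and 6.58. Of the 7 histone deacetylase genes 6 have none, and over all protein-coding genes 15.9% have one.

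SWI/SNF complexes use the ATPase Smarca2 or Smarca4 to remodel nucleosomes. A Chd1 KO peak was present at 5 of the 13 genes of this complex, beside 15.9% of all genes. Smarca4 had a peak of 19 reads and a fold enrichment of 4.10 whose summit lay 38 bp downstream of a TSS. Smarca2 had none within 33.3 kb of a TSS. The PBAF form is defined by Arid2 and Pbrm1, and both had a peak. Arid2 had the promoter with the highest GC content of all 50, 74.7%, and carried a pair of peaks upstream of its TSS. The stronger one, chr15:96117184-96117471, is 288 bp wide, with 34 reads, a fold enrichment of 5.03, a −log10 q-value of 10.8 and its summit 609 bp upstream. The other, of 31 reads, had its summit 240 bp upstream. At Pbrm1 (23 reads, fold enrichment 4.72) the summit lay 255 bp downstream, and a TSS of the neighboring gene Gnl3 lies within 1 kb of it. Of the BAF subunits that take the place of Arid2, Arid1a and Arid1b had no peak, and the promoter GC content was 53.9% for Arid1a and 62.7% for Arid1b. The core subunit Smarcc2 had summits of 24 and 27 reads at 93 bp upstream and 425 bp downstream of its only TSS, with fold enrichments of 4.30 and 4.83. Its paralog Smarcc1 had none within 113 kb. Among the Smarcd subunits only Smarcd2 had a peak (20 reads, 4.25), and Smarcd1, Smarcd3, Smarcb1 and Smarce1 had none.

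Of the remodelers of other families, 3 of 4 had a peak, beside 15.9% of all genes. Ino80, the ATPase that acts on nucleosomes with the variant H2A.Z, had a peak at chr2:119302941-119303249 of 309 bp. It held 23 reads at 5.58 times the background, with a −log10 q-value of 8.45, and its summit lay 233 bp downstream of a TSS in a 5′ untranslated exon. Srcap, which deposits H2A.Z, had 22 reads and a fold enrichment of 4.87, and Smarca5, the ISWI ATPase, 18 reads and 3.57. Ep400, a further ATPase that exchanges histone variants, had no peak within 39.1 kb.

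Polycomb repressive complex 2 (PRC2) methylates lysine 27 of histone H3. The catalytic subunits Ezh1 and Ezh2 had peaks, while the core subunits Suz12 and Eed did not. At Ezh1 the peak chr11:101087364-101087627 of 264 bp held 20 reads, with a fold enrichment of 4.65, a −log10 q-value of 5.83 and its summit 194 bp downstream of a TSS in an intron. Ezh2 had a peak of 18 reads and one of 15 reads, with fold enrichments of 4.06 and 3.42. Suz12 had none within 276 kb of a TSS, although 62.4% of its promoter is G or C and the longest run of these bases there is 36 bp. Both ubiquitin ligases of PRC1 had a peak, Rnf2 of 24 reads (4.48) and Ring1 of 25 reads (4.36). In all, 4 of the 6 Polycomb genes had a peak, beside 15.9% of all genes.

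Among the enzymes of DNA methylation, 4 of 6 had a peak, beside 15.9% of all genes. Both methyltransferases that methylate unmodified DNA, Dnmt3a (25 reads, 4.08) and Dnmt3b (29 reads, 6.0), had one. The maintenance enzyme Dnmt1 had none within 67.8 kb. The Tet dioxygenases oxidize 5-methylcytosine. Tet2 had the second highest TSS fold enrichment of the 50 genes, 6.50, in a peak of 520 bp at chr3:133207301-133207820 with 32 reads, a −log10 q-value of 13.7 and its summit 187 bp upstream of a TSS. Tet3 had the weakest peak, with 15 reads and a −log10 q-value of 1.84, which an alternative q-value cutoff of 0.01 removed. Tet1, highly expressed in ES cells, had no peak, and with 45.5% its promoter was among the 4 with a GC content under 50%. None of these 4 had a peak, beside 1.91% of other genes at 40% to 45% GC and 4.13% at 45% to 50%.

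Of the histone deacetylases, 1 of 7 genes had a TSS peak, beside 15.9% of all genes, and the groups were not compared by a test. None of the class I enzymes Hdac1, Hdac2 and Hdac3 had one, the closest Chd1 KO summits being 57.6, 138 and 257 kb away. Of the class IIa enzymes, which shuttle between nucleus and cytoplasm, Hdac7 had summits at 2 places and Hdac4, Hdac5 and Hdac9 had none. The stronger Hdac7 peak, chr15:97662104-97662315, is 212 bp wide and held 24 reads, with a fold enrichment of 5.25, a −log10 q-value of 8.15 and its summit 23 bp upstream of a TSS. This TSS is an internal one, and at the outermost TSS of Hdac7 the GC content was 53.3% and the longest run of G and C only 7 bp. The median promoter GC content of the deacetylases was 54.6%, against 58.5% for all 50 genes.

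Of the 9 histone demethylases, 4 had a peak, beside 15.9% of all genes. Kdm2b, which binds CpG islands and recruits PRC1, had 3 summits and the highest TSS fold enrichment of the 50 genes. This peak, chr5:123464985-123465417, is 433 bp wide, with 34 reads, 6.58 times the background, at a −log10 q-value of 14.7. Its summit lay 140 bp upstream of the outermost TSS, within 1 kb of a TSS of Orai1. The 2 further summits, of 23 reads each, lay in an intron near internal TSSs. Its paralog Kdm2a had 23 reads (4.12), the H3K4 demethylases Kdm1a 18 reads (3.71) and Kdm5b 30 reads (4.60). Kdm3a, Kdm4a, Kdm4c, Kdm5a and Kdm6b had no TSS peak.

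Setd2, which places the H3K36 trimethyl mark on transcribed genes, had a peak of 276 bp at chr9:110434942-110435217, with 28 reads, a fold enrichment of 5.85, a −log10 q-value of 10.7 and its summit 78 bp upstream of a TSS. Of the H3K9 methyltransferases, Ehmt1 had a peak (24 reads, 4.94) and Ehmt2 had none within 3.92 kb, although its promoter GC content of 64.7% was the highest of the 25 genes without a peak. Of the 3 histone methyltransferases 2 had a peak, and both acetyltransferases of the p300/CBP family had one, beside 15.9% of all genes. The promoter GC content was 61.8% for Ep300 and 66.4% for Crebbp. Of other genes, 55.1% had a peak at 60% to 65% GC and 72.4% at 65% to 70%. At Ep300 the peak chr15:81416069-81416445 of 377 bp held 22 reads, 4.73 times the background, at a −log10 q-value of 6.54, in a 5′ untranslated exon and 327 bp upstream of the nearest TSS. Crebbp had 17 reads and a fold enrichment of 4.00.

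The sequences under these peaks share long stretches without A or T. The longest such run of G and C in each of the 31 TSS peaks was between 13 and 41 bp, with a median of 20 bp, and 17 peaks (54.8%) held a run of at least 20 bp. For all TSS peaks the median was 20 bp and the share 51.2%. The summit lay inside the longest run in 5 of the 31 peaks. The runs in the strongest TSS peak of 7 of the 8 complexes or activities are shown on the strand of the gene, 5′ to 3′, with the run in capitals and up to 30 bases in all.
Arid2, chr15:96117421-96117450, plus strand: CGCCCGGGCCGCCGCCGCCGCCGCCGCGCG
Ino80, chr2:119303124-119303152, minus strand: tCCGCCGCCGCCGCGGCGGCGGGGCCCCt
Ezh1, chr11:101087479-101087507, minus strand: gcggaGGGGGCGCGGCGGGGGCGGacccg
Tet2, chr3:133207589-133207617, minus strand: cgggactCGCCGCGCCCCCGCGagggagc
Kdm2b, chr5:123465189-123465218, minus strand, 30 of the 31 bp: CGGCCCCGGGGCCGGGCCGGGCCGCGCCGC
Setd2, chr9:110434963-110434991, plus strand: ggtgagaGCGGCGGGCGGGCGGttgctgg
Ep300, chr15:81416109-81416137, plus strand: cataaGCCCGCGCCCCGCGGCGCCtctgc
Within the runs of all 31 TSS peaks, the more frequent of both bases made up a median of 58.8% (range 50.0% to 78.9%), and each run held between 2 and 10 CpG dinucleotides. The strong peaks at Tet2 and Setd2 held a longest run of 15 bp, so a high fold enrichment did not require a long run.

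The distance from the TSS also varied. Of the 31 summits, 18 (58.1%) lay downstream of the nearest TSS of the gene, with a median position of 38 bp downstream and quartiles of -116.5 bp (upstream) and 319 bp. For all protein-coding genes 60.8% lay downstream, with a median of 45 bp. Within 200 bp of a TSS lay 14 summits (45.2%), against 60.9% for all genes. By annotation, 14 summits lay in introns, 7 in 5′ untranslated exons, 2 in coding exons and 8 upstream of the gene. No gene was close to the limit of 1 kb. Of single summits, those farthest from a TSS were the outer ones of Arid2 and Ezh2, at 609 and 569 bp. By the nearest summit of each gene, Smarca5 and Kdm5b were the genes inside the limit that came nearest to it. The Smarca5 peak, chr8:83262760-83262959, is 200 bp wide with a −log10 q-value of 3.36, and its summit lay in an intron 549 bp from a TSS. The Kdm5b peak, chr1:136457138-136457378, is 241 bp wide with a −log10 q-value of 8.52, and its summit lay in an intron at 519 bp. The nearest outside were Kdm4a at 2.70 kb and Ehmt2 at 3.92 kb. With the window used in the study, which ends 100 bp downstream of the TSS, 14 of the 50 genes had a peak, beside 10.3% of all genes. At Hdac7, Dnmt3a and Kdm2a the summits lay near an internal TSS alone, and with the outermost TSS only 22 genes were left.
The runs under the Smarca5 and Kdm5b peaks, shown because these genes are nearest to the limit, also mix both bases.
Smarca5, chr8:83262861-83262889, minus strand: ccgaGGGCGGCGCGGCGCCCGCGGCtccg
Kdm5b, chr1:136457272-136457301, plus strand: ggaggaaGGCGCGGGGGCCCCCGtcccggg

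**Figure D2:**
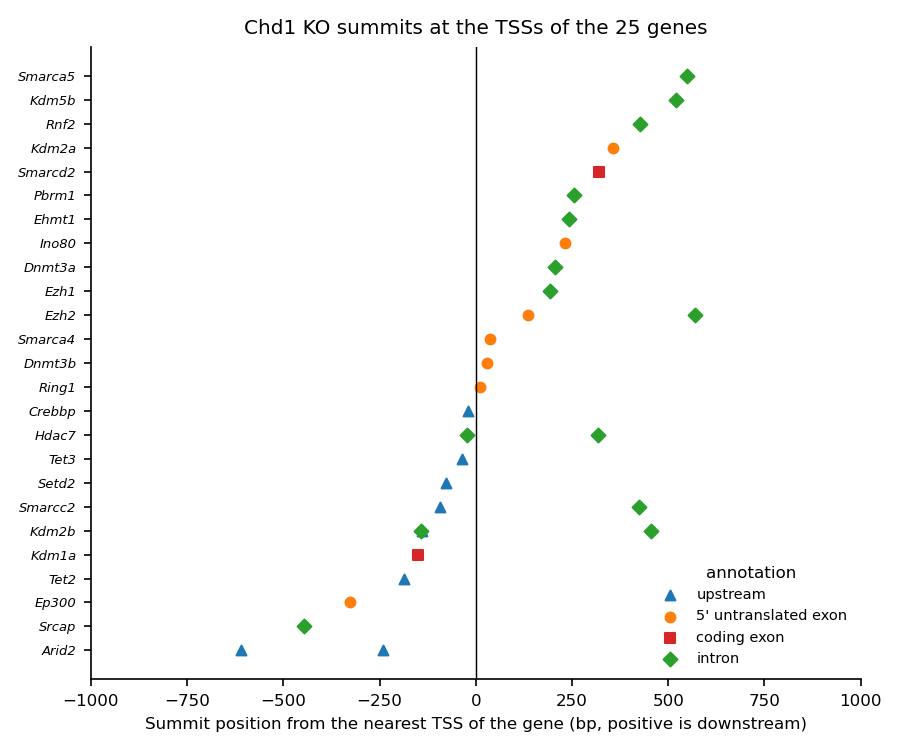
Position of the 31 Chd1 KO summits from the nearest TSS of the gene (x axis, bp, positive is downstream) for the 25 chromatin genes with a TSS peak (y axis). Marker and color give the annotation of the summit. The positions run from 609 bp upstream at Arid2 to 569 bp downstream at Ezh2, and the 2 upstream Kdm2b markers, 1 bp apart, overlap.

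The promoters of the 50 genes differ from those of most genes. Their GC content within 1 kb of the outermost TSS had a median of 58.5% (quartiles 55.2% and 61.0%), against 51.1% (quartiles 45.7% and 55.9%) for all protein-coding genes, and 32.0% of them, against 10.4%, had a GC content of at least 60%. The longest run of G and C in the same window had a median of 18.5 bp, against 12 bp. The mean length of their protein-coding transcripts had a median of 41.3 kb, against 13.2 kb. They also have more annotated TSSs, with a median of 5 against 2, and a gene with several TSSs offers more places at which a summit can count. Per Mb of sequence within 1 kb of a TSS there were 84.7 summits at the chromatin genes and 47.1 at all genes. At the 129 further chromatin genes described below there were 83.5, so this density was not particular to the 50.

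The shares were then set beside those of genes of like promoter GC content. From 50% to 55% GC, 3 of 8 chromatin genes had a peak (37.5%, interval 13.7% to 69.4%), against 11% of the 5851 other genes. From 55% to 60% it was 11 of 22 (50.0%, interval 30.7% to 69.3%), against 29.1% of 4286 genes. From 60% to 65% it was 9 of 14 (64.3%, interval 38.8% to 83.7%), against 55.1% of 1808 genes. These bins use the GC content at the outermost TSS, whereas a summit at any TSS counts. Hdac7, in the bin from 50% to 55%, had its counted summits near an internal TSS alone. The same holds for Dnmt3a and Kdm2a, in the bin from 60% to 65%. When each chromatin gene was given the share of other genes in its GC bin, the sum was 16.8 genes, beside the 25 found. With bins of the number of TSSs the sum was 10.6, and with bins of both it was 17.9. Adding bins of gene length gave 20.7, though the smallest of these joint bins held 4 genes. For bins of GC content alone, the sum was 20.2 with GC content taken within 500 bp of the outermost TSS. With GC bins of 2.5 points it was 17.1. These shares, intervals and sums describe the genes and are no test.

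**Figure D3:**
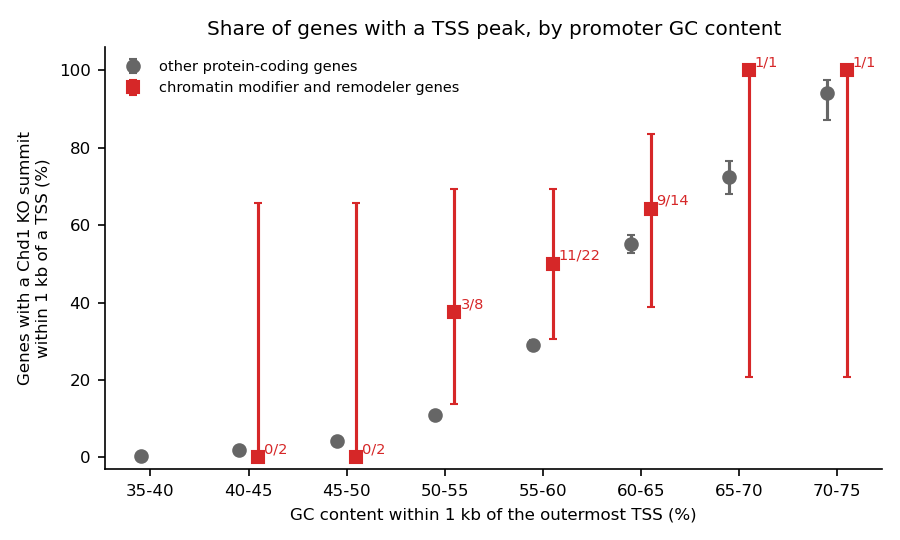
Share of genes with a Chd1 KO summit within 1 kb of a TSS (y axis, %) by GC content within 1 kb of the outermost TSS (x axis, %). Red squares are the 50 chromatin genes, with counts, and grey circles the other protein-coding genes. Bars are Wilson 95% intervals, which cover counting error only. The share of other genes climbs from 11% at 50% to 55% GC to 55.1% at 60% to 65% GC, and the chromatin genes in these bins stand at 3 of 8 and 9 of 14.

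Within the set, genes with and without a peak differed less than they do genome-wide in gene length and in GC content within 1 kb. The median promoter GC content was 59.6% for the 25 with a peak and 56.1% for the 25 without, a difference of 3.50 percentage points, against 8.80 points over all protein-coding genes. The difference in the set was larger, 7.09 points, when GC content was taken within 500 bp of the TSS. The genome-wide difference was not computed for that window. The median longest run was 20 bp with and 16 bp without a peak. Median gene length was 44.8 kb and 41.0 kb, a ratio of 1.09, whereas over all genes it was 33.1 kb and 10.9 kb, a ratio of 3.04. A run of at least 20 bp near the outermost TSS was found at 22 of the 50 genes, of which 14 had a peak. Over all protein-coding genes such a run was found at 3650 (16.3%), of which 2065 had a peak. The 8 chromatin genes without one were Smarcd1, Smarcd3, Arid1b, Suz12, Eed, Hdac2, Kdm3a and Ehmt2. Smarcd3, with a run of 41 bp and 62.3% GC, had no Chd1 KO summit within 69.3 kb, whereas Crebbp had a run of the same length and a peak.

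**Figure D4:**
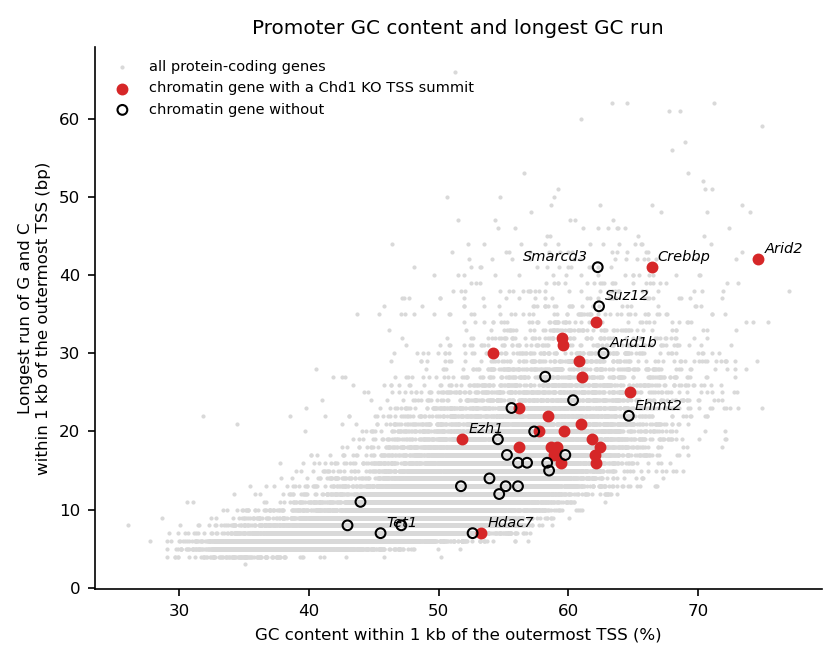
GC content (x axis, %) and longest run of G and C (y axis, bp) within 1 kb of the outermost TSS. Red circles are the 25 chromatin genes with a Chd1 KO TSS peak, open circles the 25 without, and grey dots all protein-coding genes. Both kinds are found between 51.8% and 64.7% GC, and all 4 chromatin genes under 50% are without a peak. Of other genes at 45% to 50% GC, 4.13% have one.

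Short motifs were counted within 150 bp of the outermost TSS, on both strands. GGGCGG, the core of the GC box bound by Sp1, was present at 23 of the 25 chromatin genes with a peak (92.0%) and at 15 of the 25 without (60%). Over all protein-coding genes the share was 45.8%, and it was 78.3% for those with a peak and 39.6% for those without. GGCGGC, which can overlap GGGCGG, was found at 17 and 15 genes, and at 34.8% of all promoters (71.1% of those with and 27.9% of those without a peak). CGCGCG was found at 6 genes with and 9 without a peak, and at 16.2% of all promoters (40.2% with and 11.7% without). GGGGGG was found at 8 and 9 genes, and at 18.6% of all promoters (33.3% with and 15.8% without). Genome-wide all 4 motifs were thus more frequent at promoters with a peak, whereas in the set the counts of CGCGCG and GGGGGG were not, at 25 genes on either side.

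Away from TSSs the chromatin genes held fewer peaks than at TSSs. A summit inside the gene and more than 1 kb from each of its TSSs was found at 6 of the 50 genes (12%, interval 5.62% to 23.8%), with 1 summit each, against 4.14% of all protein-coding genes. In control the count was 0, against 0.0313% of all genes. The chromatin genes are long, and per Mb of gene body the number of Chd1 KO summits was 1.61, against 1.13 for all genes. The 6 genes were Smarca2, Pbrm1, Ino80, Dnmt3b, Hdac7 and Kdm4a, of which all but Smarca2 and Kdm4a also had a TSS peak, and 23 genes had no summit of either kind. The peak at Pbrm1, chr14:31912408-31912860, was the strongest, 453 bp wide with 27 reads, 6.42 times the background, at a −log10 q-value of 11.5. It lay in an intron, 9861 bp from a TSS. The intronic peak of Ino80, chr2:119243279-119243503, held 20 reads (fold enrichment 5.02), that of Kdm4a, chr4:117821992-117822191, held 22 reads (4.51), that of Hdac7, chr15:97646887-97647251, held 22 reads (4.49), and that of Dnmt3b, chr2:153511374-153511573, held 16 reads (4.06). Their −log10 q-values lay between 3.79 and 6.49. The Smarca2 peak, chr19:26714887-26715132 (19 reads, 4.78), lay in a coding exon, with a GC content of 69.1% and a longest run of only 10 bp.
The intronic peaks differed in base composition from those at TSSs. Their GC content lay between 45.7% and 57.5%, whereas that of the 31 TSS peaks lay between 71.0% and 84.1%, and the ranges did not overlap. Over all protein-coding genes the medians were 56.0% for gene body peaks and 76.6% for TSS peaks. Gene body peaks can be as rich in GC as TSS peaks, as were the intronic ones of Baz2a, a chromatin gene outside the set, at 75.9% and 81.3%, which was chosen after its values were seen. Despite their lower GC content, the 5 intronic peaks of the set each held a run of G and C of 23 to 28 bp. Those of 3 genes are shown, again on the strand of the gene, because 1 base makes up most of each.
Ino80, chr2:119243415-119243444, minus strand: ttCCGGGCGGGGGGCGGGGGGGGGGGGGtg
Hdac7, chr15:97647100-97647128, minus strand: gatGCGGGGGGGGGGGGGGGGCGGGGacg
Kdm4a, chr4:117822083-117822111, minus strand: ctCCCCCCCCCCCCCCCGGCGCCCCCCac
In the runs of the 5 intronic peaks the more frequent base made up between 84.6% and 91.3%, above the highest value of the 31 TSS peaks. The longest stretch of 1 base was 7 to 16 bp, against 3 to 6 bp in the runs at TSSs. The base composition of runs was not computed for peaks of other genes. Whether this difference is particular to the set was therefore not tested.

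**Figure D5:**
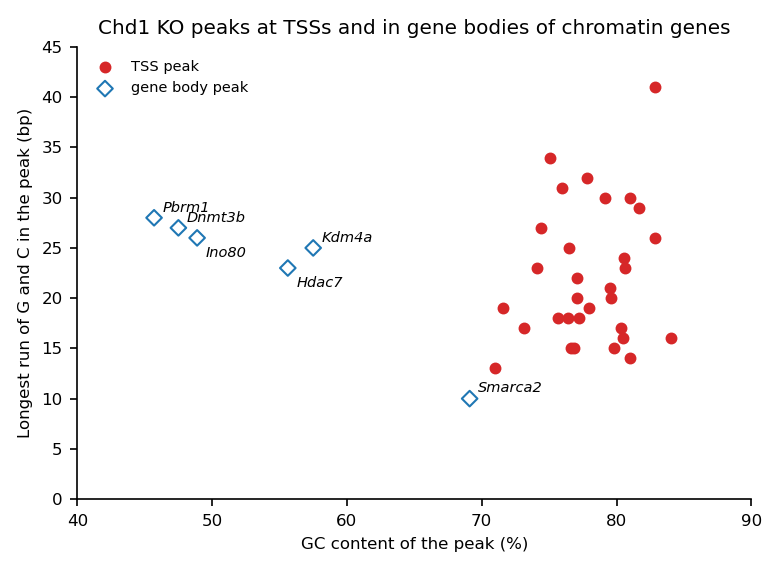
GC content (x axis, %) and longest run of G and C (y axis, bp) of the Chd1 KO peaks of the 50 chromatin genes. Red circles are the 31 TSS peaks and blue diamonds the 6 gene body peaks. The TSS peaks lie between 71.0% and 84.1% GC, the 5 intronic gene body peaks between 45.7% and 57.5%, and the exonic Smarca2 peak at 69.1%.

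A second list of 129 further chromatin genes, written down by function, was counted in the same way. It holds other writers, erasers, readers and complex subunits, with the Chd family left out. The list was written with earlier results of these data known, so it is no independent check. The paper's own analysis of gene functions, on the same Chd1 KO peaks, predicts that chromatin modification genes are among those prone to DSBs. A Chd1 KO TSS peak was found at 50 of the 129 (38.8%, interval 30.8% to 47.4%) and no control summit was found at a TSS. A gene body summit was found at 7 (5.43%, interval 2.65% to 10.8%), near the 4.14% of all genes. For a TSS peak in Chd1 KO the share over all genes was 15.9%. The median promoter GC content of the list was 56.8%. Its genes had a median of 5 annotated TSSs, a median longest run of 17 bp and a median length of 28.9 kb. The highest fold enrichments were at the corepressor Ncor1 (6.22), Baz2b (6.19), the PRC1 subunit Pcgf3 (5.98), Jmjd1c (5.89) and the PRC1 subunit Cbx7 (5.84). The Chd1 gene itself had 2 Chd1 KO TSS summits and no control summit, which does not report on its deletion.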

How the data were processed

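DSB-seq peak lists of Chd1 KO and control mouse ES cells were analyzed. Bowtie2, bedtools, MACS2 and the build mm9 are named in the submitters' processing notes. By the study's methods, the authors aligned reads with Bowtie2, dropped those of mapping quality under 13 and left 1 read at any position. The 2 replicates were pooled, MACS2 peaks were called on reads extended to 200 bp (q-value cutoff 0.05), and blacklisted regions were taken out. The deposited fold enrichment is a ratio to the local background within the same library, with a constant added to both. The −log10 p-values and q-values are also deposited by the authors. A deposited score, 10 times the −log10 q-value, was not used. Without counts per replicate no replicate error exists.

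Reads at summits were recovered as whole numbers from fold enrichment and Poisson p-value. They returned the authors' −log10 p-values within 7.25e-05 (Chd1 KO) and 1.35e-04 (control). The lowest background, which scales with depth, was 3.18 reads in Chd1 KO and 2.95 in control. Depth per replicate was not used here. The weakest listed peaks had −log10 p-values of 4.88 and 7.13.

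TSSs of all transcripts came from GENCODE M1 (mm9), and coordinates are 1-based. For Srcap and Hdac4, which have 2 models, the longer was used. Gene length is the mean over protein-coding transcripts. Named with full values are the gene with the strongest TSS peak in each complex or activity, those nearest to the 1 kb limit and those with gene body summits. Of these last the rule asked for 2, and as all 6 had 1 summit they were all given. The genes, lists, motifs and settings were chosen with earlier results of these data known. Python 3.11.15, NumPy 2.4.6, SciPy 1.17.1, pandas 2.3.3, pysam 0.24.0, samtools 1.23.1 and Matplotlib 3.10.9 were used, and the functions were tested on simulated data. Run sequences of the other peaks are not reported here. ChIP-seq samples were not analyzed here.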

Additional observations from a re-analysis of the deposited data

How the results depend on the processing

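No paired analysis was possible because only pooled replicates entered the peak lists, which also prevents leaving out a replicate. A minimum fold enrichment of 5 left 7 of the 50 chromatin genes, 16 of the 129 further genes, 4.88% of all genes and 2 genes with a gene body summit. A window reaching 1 kb upstream and 100 bp downstream gave 14, 31 and 10.3%. The share of all genes was 15.3% at a q-value cutoff of 0.001, 12.7% at a minimum fold enrichment of 4, 14.2% at the weakest p-value of the control list, 14.7% within 500 bp of a TSS, 16.6% within 2 kb and 14.3% with the outermost TSS. Counting the whole gene span gave 22 genes. The median promoter GC content was 65.9% within 500 bp and 54.4% as a mean over all TSSs, and the difference between genes with and without a peak was 7.09 points within 500 bp. Median length was 58.6 kb as gene span and 58.5 kb for the longest transcript. Under the other alternatives tried for them, between 22 and 25 of the 50 genes had a TSS peak and 6 had a gene body summit. Of all alternatives, 3 were chosen after seeing the data (all models of a gene, for both counts, and peaks near another gene left out). The TSS count in control was 0 under each alternative for which it was computed, which leaves out those chosen after seeing the data.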
